A study of Homo sapiens with 10 samples.

Results

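The hnRNP, SR and related splicing proteins were described as 37 genes out of the 23234 listed in all 5 of the deposited expression tables. They comprise 18 genes for heterogeneous nuclear ribonucleoproteins (hnRNPs), 12 for serine/arginine-rich (SR) proteins and the related TRA2 proteins, and 7 for other RNA-binding splicing proteins. Each was found by its symbol, and all 37 had a level of at least 1 FPKM (a read level scaled by transcript length and library size) in every library. The 37 were chosen by gene family with their FPKM in each library and their treated-over-control ratios already known, so what follows describes these libraries and tests nothing.

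SR proteins bind exonic enhancers through RNA-recognition domains and draw the spliceosome to nearby splice sites through arginine/serine-rich domains, whose phosphorylation sets their location and activity. The hnRNPs coat nascent transcripts and often act against SR proteins by silencing exons, and many also act in mRNA export, stability or transcription. Several members of both families limit their own transcripts by splicing that leads to decay, so transcript level and protein level need not move together, and RNA was the only measure here.

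Transcript levels came from RNA sequencing of 3 cell lines from human lung adenocarcinoma, named PC9, PC9M and H358 and grown in RPMI1640 with serum. The labels give PC9M as the line with more metastasis to bone and brain, PC9 as one with general metastasis and H358 as not tested. The first perturbation was GNF5, an allosteric inhibitor of the ABL kinases, for 72 h, at a dose written as 10 mM in PC9 and H358 and 20 mM in PC9M (the unit is the labels' and was not verifiable), with DMSO as the control culture. The second, in PC9 and PC9M, was shRNAs against both ABL1 and ABL2, with scrambled shRNA as the control and 8 µg/mL polybrene in both arms. Each of the 10 groups was 1 library of 1 cell line in bulk, so no difference below has a replicate check or an error, and a smaller share of one kind of cell cannot be told apart from less RNA per cell. The 5 pairs were normalised in separate tables, so ratios were taken within a table, as log2 of treated FPKM plus 1 over control FPKM plus 1, a scale that understates differences of low genes.

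ABL1 was at 24.9 FPKM with scrambled and 3.97 with ABL1/ABL2 shRNAs in PC9, and at 10.5 and 3.56 in PC9M. ABL2 was at 7.88 and 1.87 in PC9 and at 5.22 and 3.03 in PC9M, and with GNF5 the log2 ratios lay between -0.19 and -0.01 for ABL1 and between 0.10 and 0.65 for ABL2. The 7 epithelial markers summed to between 2337 and 13851 FPKM in every library. NKX2-1, the lung lineage factor, was at or near 0 in every PC9 and PC9M library and at 92.1 and 46.3 FPKM in the DMSO and GNF5 libraries of H358. The 4 leukocyte markers summed to between 0.301 and 2.66 FPKM, the 5 fibroblast markers to between 1.29 and 13.2 and the 4 endothelial markers to between 2.34 and 31.6, the latter with PECAM1 at 23.2 FPKM with DMSO and 11.3 with GNF5 in PC9. Reads per library are unknown.

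With GNF5, most of the splicing genes were lower in PC9M and in H358, while in PC9 they were split. In PC9M 36 of the 37 were lower, against 57.7% of the 12370 genes of at least 1 FPKM in either library, and their median log2 ratio was -0.67 against -0.06 over all of those genes. In H358 36 were also lower, against 74.5% of 12951 genes, and their median was -0.55 against -0.19. In PC9 19 were lower and 18 higher, against 57% of 12004 genes lower, with a median of -0.04 against -0.10. At least 1.5-fold lower were 20 genes in PC9M, where 8.04% of all genes were, 17 in H358, where 10.9% were, and 8 in PC9, where 20% were. Among genes of at least 10 FPKM, a level closer to that of the splicing genes, 11.1% were at least 1.5-fold lower in PC9M, 10.6% in H358 and 17.7% in PC9. At least 2-fold lower were 5 in PC9M against 1.81% of all genes, 1 in H358 against 2.4%, and 5 in PC9 against 6.83%. Since the H358 ratios of all genes were themselves low, the H358 count of genes at least 1.5-fold lower went from 17 to 8 once the all-gene median was subtracted. The share of all genes after that subtraction is not given here, so the 8 cannot be set against the shares above.

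**Figure D1:**
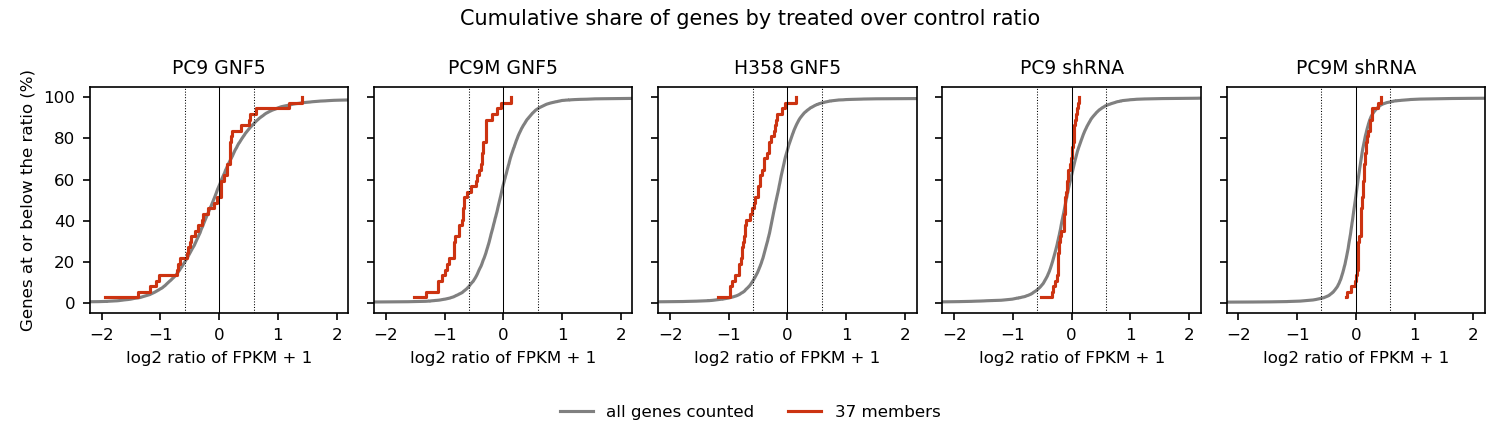
Cumulative share of genes (y axis, percent) at or below each log2 ratio of FPKM plus 1 (x axis), treated over control, for the 37 splicing genes (red) and for all genes of at least 1 FPKM in either library (grey), with dotted lines at a 1.5-fold difference. The red curve lies left of the grey one with GNF5 in PC9M (medians -0.67 and -0.06) and in H358 (-0.55 and -0.19), crosses it in PC9 (-0.04 and -0.10) and stays inside the dotted lines with the shRNAs.

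Of the 37 genes, 7 were at least 1.5-fold lower with GNF5 in each of the 3 lines, namely HNRNPM, HNRNPU, SRSF1, SRSF2, SRSF3, SFPQ and DHX9. Over the 10655 genes of at least 1 FPKM in all 3 comparisons the share was 0.657%, or 70 genes, and among genes of at least 10 FPKM it was 0.641%. These ratios were among the values known when the genes were listed, so nothing is read from the count. A further 8 (HNRNPA2B1, HNRNPA3, HNRNPD, HNRNPK, HNRNPR, SRSF7, TRA2A and TRA2B) were at least 1.5-fold lower in both PC9M and H358 but within 1.5-fold in PC9. That made 15 in PC9M and H358 together, against 2.73% of 11454 genes, and 22 of the 37 in at least 1 of the 3 lines, against 29% of 10655 genes. By any amount, 17 of the 37 were lower in all 3 lines, against 31% of genes.

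Promoter sequences were looked up because these genes were lower together. RefSeq entries on GRCh38.p14, each the 250 bases before the first listed start of the gene, were found for 33 of the 37, all but HNRNPA1, SFPQ, SRSF2 and TRA2A. The 5 found among the 7 genes lower in all 3 lines are shown, read 5′ to 3′ on the strand of the gene, with those of HNRNPL and SRSF4, which were higher in PC9. They lie at chr19:8444725-8444974 on the plus strand (HNRNPM), chr1:244864544-244864793 on the minus strand (HNRNPU), chr17:58007247-58007496 on the minus strand (SRSF1), chr6:36594112-36594361 on the plus strand (SRSF3), chr1:182839097-182839346 on the plus strand (DHX9), chr19:38852348-38852597 on the minus strand (HNRNPL) and chr1:29181901-29182150 on the minus strand (SRSF4). Capitals mark each match, on either strand, to any of 6 motifs: the E-box CACGTG, the GC box GGGCGG, the TATA box TATAAA, the CCAAT box CCAAT, the ETS motif CCGGAAG and the CRE core TGACG.
HNRNPM: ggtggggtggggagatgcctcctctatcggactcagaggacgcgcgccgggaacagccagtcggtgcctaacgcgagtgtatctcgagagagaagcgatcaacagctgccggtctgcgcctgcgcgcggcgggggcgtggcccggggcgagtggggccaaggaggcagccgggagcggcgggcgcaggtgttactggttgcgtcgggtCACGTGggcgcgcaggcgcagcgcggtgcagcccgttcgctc
HNRNPU: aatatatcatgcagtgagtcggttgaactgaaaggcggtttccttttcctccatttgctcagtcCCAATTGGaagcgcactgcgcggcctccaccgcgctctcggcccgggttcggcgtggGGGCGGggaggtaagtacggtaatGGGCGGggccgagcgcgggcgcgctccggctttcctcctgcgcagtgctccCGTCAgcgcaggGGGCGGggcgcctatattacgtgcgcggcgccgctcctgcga
SRSF1: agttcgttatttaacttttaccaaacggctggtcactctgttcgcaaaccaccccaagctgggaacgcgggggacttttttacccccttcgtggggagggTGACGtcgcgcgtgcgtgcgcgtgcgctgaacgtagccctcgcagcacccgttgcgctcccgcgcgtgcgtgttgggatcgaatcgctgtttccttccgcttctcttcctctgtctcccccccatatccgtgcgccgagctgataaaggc
SRSF3: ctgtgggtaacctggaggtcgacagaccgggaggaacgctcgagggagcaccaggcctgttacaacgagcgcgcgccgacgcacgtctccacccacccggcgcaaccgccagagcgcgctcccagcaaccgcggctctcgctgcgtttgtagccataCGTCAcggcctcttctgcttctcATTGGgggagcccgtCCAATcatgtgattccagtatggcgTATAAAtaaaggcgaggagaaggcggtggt
DHX9: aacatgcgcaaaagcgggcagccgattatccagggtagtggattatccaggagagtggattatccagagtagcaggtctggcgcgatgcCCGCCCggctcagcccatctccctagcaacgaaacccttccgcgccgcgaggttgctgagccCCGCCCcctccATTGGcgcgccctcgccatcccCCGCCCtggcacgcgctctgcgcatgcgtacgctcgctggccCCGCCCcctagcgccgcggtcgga
HNRNPL: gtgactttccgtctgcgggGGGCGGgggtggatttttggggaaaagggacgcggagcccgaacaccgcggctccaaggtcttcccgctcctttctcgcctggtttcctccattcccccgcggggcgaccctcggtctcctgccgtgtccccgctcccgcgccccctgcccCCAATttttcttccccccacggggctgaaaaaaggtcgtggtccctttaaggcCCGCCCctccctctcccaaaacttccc
SRSF4: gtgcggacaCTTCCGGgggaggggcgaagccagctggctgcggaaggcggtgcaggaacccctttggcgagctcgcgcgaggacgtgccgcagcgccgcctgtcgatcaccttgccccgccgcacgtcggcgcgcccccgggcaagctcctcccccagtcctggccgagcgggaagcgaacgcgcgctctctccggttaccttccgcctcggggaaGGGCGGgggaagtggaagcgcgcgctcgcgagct

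The E-box was in HNRNPM alone of the 7 shown and in 6 of the 33, against 6.49% of the 27305 promoters in the table. The GC box was in HNRNPU, DHX9, HNRNPL and SRSF4 and in 22 of the 33, against 42.3%, and the CCAAT box was in HNRNPU, SRSF3, DHX9 and HNRNPL and in 16, against 33.04%. The TATA box was in SRSF3 and in 5 of the 33, against 11.1%. The CRE core was in HNRNPU, SRSF1 and SRSF3 and in 12 of the 33, against 21.7%, while the ETS motif was in SRSF4 and in 4 of the 33, against 8.82%. The median GC content was 65.6% in the 33 promoters and 58% in all, and it was not separated from the motif shares. The 27305 promoters were not limited by transcript level, while the 33 belong to genes of at least 1 FPKM in every library. Motif shares among genes of a like level are not given here. A match is only the presence of these letters in the window.

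Among the hnRNPs, HNRNPM, which binds GU-rich stretches and acts in the exon choice of epithelial and mesenchymal cells, had the lowest mean GNF5 ratio. It was listed (hg18, chr19:8415803-8460002) at 42.0 FPKM with DMSO and 17.9 with GNF5 in PC9, at 106 and 36.5 in PC9M, and at 72.7 and 38.5 in H358. In the shRNA pairs, scrambled first, it was at 137 and 120.2 FPKM in PC9 and at 107 and 117 in PC9M. The GNF5 library was thus the lower one in each line, with log2 ratios of -1.19, -1.52 and -0.90, and the shRNA ratios were -0.19 and 0.12. HNRNPU, a scaffold protein of chromatin and nascent RNA (hg18, chr1:243080225-243094450), was at 41.5 and 19.8 FPKM in PC9, at 98.3 and 54.3 in PC9M and at 75.2 and 43.7 in H358 with DMSO and GNF5. With scrambled and ABL1/ABL2 shRNAs it was at 62.2 and 66.0 FPKM in PC9 and at 94.3 and 115 in PC9M. Its ratios were -1.03, -0.84 and -0.77 with GNF5 and 0.08 and 0.28 with the shRNAs, so the shRNA library was the higher one in both lines. With the all-gene median subtracted, HNRNPU in H358 was at -0.58, short of 1.5-fold.

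HNRNPA2B1, which binds exonic silencers and helps sort RNAs for transport, was at 125 and 87.9 FPKM with DMSO and GNF5 in PC9, at 229.6 and 106 in PC9M and at 227 and 135 in H358. HNRNPAB, a relative that also binds nucleic acids in the cytoplasm, was at 106 and 66.1 FPKM in PC9, at 155 and 77.4 in PC9M and at 67.5 and 50.7 in H358. HNRNPD, known as AUF1 for its part in the decay of AU-rich mRNAs, was at 41.7 and 45.9 FPKM in PC9, at 98.5 and 61.4 in PC9M and at 149 and 83.5 in H358. In PC9M and H358 the GNF5 library was the lower one for all 3 genes, by log2 ratios from -1.11 (HNRNPA2B1 in PC9M) to -0.41 (HNRNPAB in H358), while in PC9 HNRNPD was at 0.14. HNRNPA1, the classic exon silencer, was higher with GNF5 in PC9 (122 against 174 FPKM with DMSO first, log2 ratio 0.51) and lower in PC9M (492 against 379, -0.37) and H358 (309.7 against 175, -0.82). Its listed locus holds a pseudogene copy, HNRNPA1P10, whose reads may be shared with it, so its level is uncertain. HNRNPC, which binds uridine tracts and packages nascent transcripts, differed in the same way, at 60.5 and 87.0 FPKM in PC9, 228 and 184 in PC9M and 349 and 258 in H358.

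HNRNPL, which binds CA repeats and can enhance or silence exons, was among the genes higher with GNF5 in PC9. It was listed (hg18, chr19:44018868-44034819) at 100.4 FPKM with DMSO and 270.0 with GNF5 in PC9, at 193 and 119 in PC9M and at 132 and 93.5 in H358. The PC9 ratio was 1.42, the highest of the 37 there, and those in PC9M and H358 were -0.69 and -0.50. Over all genes, 1.86% were at least 1.5-fold higher in PC9 and lower by as much in PC9M or H358. HNRNPL was the 1 of the 37 that was, and nothing is read from that count of 1. With scrambled and ABL1/ABL2 shRNAs HNRNPL was at 321 and 295 FPKM in PC9 and at 195 and 221 in PC9M, so the PC9 DMSO library held the lowest PC9 value of the gene. Of the 18 hnRNP genes, 9 were lower with GNF5 in PC9, 18 in PC9M and 17 in H358, with medians of 0.05, -0.58 and -0.48. The exception in H358 was HNRNPUL2, a relative of HNRNPU, at 20.3 and 22.4 FPKM, and its listed locus also holds BSCL2 and GNG3. The smallest shifts in PC9M were those of HNRNPH3 (-0.04), which binds G-rich RNA, and of HNRNPA0 (-0.29), a binder of AU-rich elements. HNRNPK, which binds C-rich tracts, HNRNPR and HNRNPA3 lay between -0.72 and -0.61 in both PC9M and H358. HNRNPF and HNRNPH1, which bind G-runs and often act together, lay between -0.56 and -0.28 in those lines and at 0.21 and 0.37 in PC9. HNRNPH2 and HNRNPUL1 were low in all 3 lines by small amounts, from -0.47 to -0.04, and HNRNPH1 and HNRNPH2 are close enough in sequence that reads may be split between them.

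Among the SR genes, SRSF3, an SR protein that also acts in mRNA export, had the largest difference in PC9. It was listed (hg18, chr6:36670068-36680222) at 61.8 FPKM with DMSO and 23.0 with GNF5 in PC9, at 122 and 72.1 in PC9M and at 105 and 54.2 in H358. In the shRNA pairs, scrambled first, it was at 150.3 and 130.0 FPKM in PC9 and at 121 and 122 in PC9M. The GNF5 ratios were -1.39, -0.75 and -0.94, and the shRNA ratios were -0.21 and 0.01. SRSF2, which forms a hallmark of nuclear speckles and is mutated in myeloid neoplasms, was at 24.3 and 14.4 FPKM with DMSO and GNF5 in PC9, at 186 and 85.7 in PC9M and at 188 and 82.5 in H358. With scrambled and ABL1/ABL2 shRNAs it was at 84.4 and 78.9 FPKM in PC9 and at 195 and 211 in PC9M. SRSF2 was low in both PC9 cultures of the GNF5 pair compared with every other library, and its GNF5 ratios were -0.71, -1.11 and -1.18. It was the 1 gene at least 2-fold lower in H358, where 2.4% of all genes were, but its listed locus (hg18, chr17:72241792-72286931) also holds MFSD11 and MIR636. SRSF1, the founding SR protein and a proto-oncogene (hg18, chr17:53433279-53439706), was at 17.5 and 10.4 FPKM with DMSO and GNF5 in PC9, at 73.5 and 29.0 in PC9M and at 59.1 and 33.5 in H358. In the shRNA pairs, scrambled first, it was at 49.8 and 41.6 FPKM in PC9 and at 69.9 and 76.9 in PC9M. Its GNF5 ratios were -0.70, -1.31 and -0.80, and with a pseudocount of 5 the PC9 ratio was -0.55, short of 1.5-fold.

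**Figure D2:**
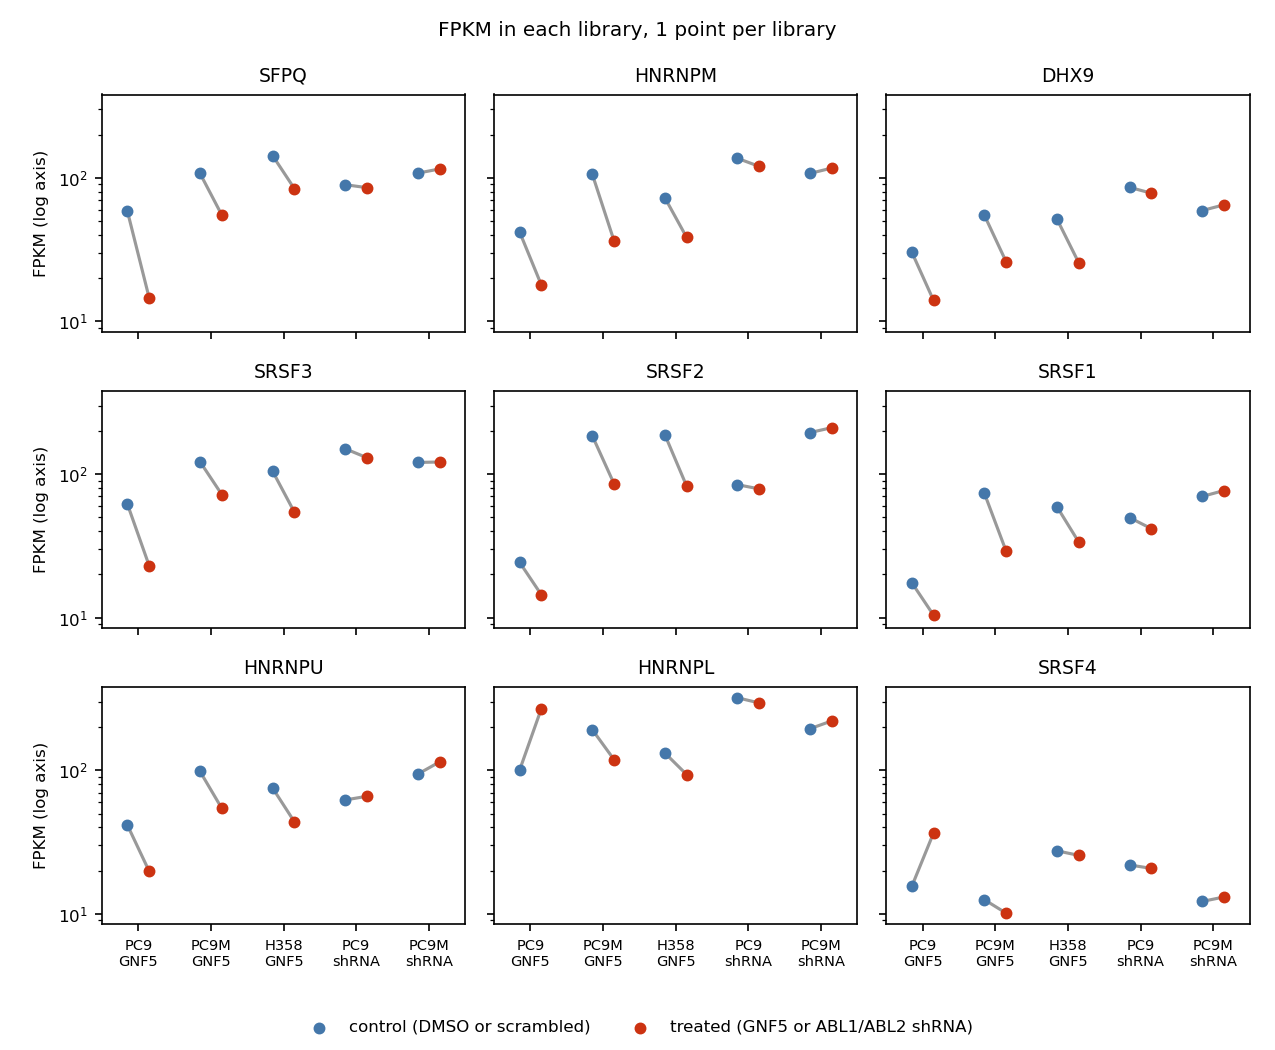
FPKM (y axis, log scale) of 9 genes in each of the 10 libraries, 1 point per library with no error, with a line joining control and treated libraries of a pair (x axis: the 5 pairs). The GNF5 point lies below the DMSO point in all 3 lines for SFPQ, HNRNPM, DHX9, SRSF3, SRSF2, SRSF1 and HNRNPU, and above it in PC9 for HNRNPL (100.4 and 270.0) and SRSF4 (15.5 and 36.7), while the shRNA pairs are nearly level.

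TRA2A and TRA2B, which bind GA-rich enhancers, were both lower with GNF5 in all 3 lines. TRA2A was at 14.8 and 11.9 FPKM with DMSO and GNF5 in PC9, at 28.5 and 15.5 in PC9M and at 34.4 and 17.0 in H358, where its ratio was -0.98. TRA2B was at 8.05 and 5.45 FPKM in PC9, at 42.5 and 21.8 in PC9M and at 32.0 and 20.6 in H358. Their PC9 ratios were -0.29 and -0.49. SRSF4 went the other way in PC9, where it was at 15.5 FPKM with DMSO and 36.7 with GNF5 (hg18, chr1:29346837-29381224), and it was at 12.5 and 10.1 in PC9M and at 27.5 and 25.6 in H358. With scrambled and ABL1/ABL2 shRNAs SRSF4 was at 21.9 and 20.7 FPKM in PC9 and at 12.2 and 13.1 in PC9M, so the PC9 GNF5 library was the highest of the 10. SRSF11, an SR-related protein, was at 26.5 and 41.7 FPKM in PC9, with a ratio of 0.64 that was 0.57, short of 1.5-fold, with a pseudocount of 5. HNRNPL, SRSF4 and SRSF11 were the 3 genes at least 1.5-fold higher with GNF5 in any line, all in PC9, where 13% of all genes were, against 5.65% in PC9M and 2.76% in H358.

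Of the 12 SR and TRA2 genes, 7 were lower with GNF5 in PC9, 11 in PC9M and 12 in H358, with medians of -0.35, -0.73 and -0.59. The exception in PC9M was SRSF5, at 83.8 FPKM with DMSO and 92.2 with GNF5, which was also nearly level in H358 (171 and 166) and lower in PC9 (36.4 and 24.6). SRSF10, a repressor of splicing when dephosphorylated, and SRSF7, which like SRSF3 acts in export, were within 1.5-fold in PC9, at 0.08 and 0.19. They were at -0.83 and -0.70 in PC9M and at -0.57 and -0.72 in H358. SRSF6 was at -0.41, -0.35 and -0.32, and SRSF9 at 0.18, -0.36 and -0.21, in PC9, PC9M and H358.

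Of the other splicing proteins, SFPQ and DHX9 were low with GNF5 in all 3 lines. SFPQ, a paraspeckle protein that acts in transcription, splicing and DNA repair, was listed (hg18, chr1:35421788-35431330) at 58.5 FPKM with DMSO and 14.5 with GNF5 in PC9, at 107 and 55.1 in PC9M and at 143 and 84.1 in H358. With scrambled and ABL1/ABL2 shRNAs it was at 89.6 and 85.5 FPKM in PC9 and at 108 and 115 in PC9M. The PC9 GNF5 library was the lowest of the 10, and the PC9 ratio of -1.94 was the lowest of any of the 37 genes in any pair. In PC9M and H358 the SFPQ ratios were -0.95 and -0.76, the latter -0.57 and short of 1.5-fold with the all-gene median subtracted. DHX9, an RNA helicase that unwinds double-stranded RNA (hg18, chr1:181075062-181123740), was at 30.4 and 13.98 FPKM in PC9, at 54.9 and 26.0 in PC9M and at 51.5 and 25.5 in H358 with DMSO and GNF5. With scrambled and ABL1/ABL2 shRNAs DHX9 was at 85.9 and 78.2 FPKM in PC9 and at 59.2 and 64.9 in PC9M. Its GNF5 ratios of -1.07, -1.05 and -0.98 were the most alike across lines among the 7.

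NONO, the paraspeckle partner of SFPQ, differed little by comparison, at 212 and 215 FPKM with DMSO and GNF5 in PC9, 181 and 158 in PC9M and 167 and 132 in H358. PTBP1, which represses exons next to CU-rich tracts, was at 83.5 and 95.5 FPKM in PC9, 197 and 109.8 in PC9M and 77.9 and 69.1 in H358. TARDBP, which binds UG repeats and keeps cryptic exons out of mRNA, was at 11.6 and 11.9 FPKM in PC9, 41.6 and 24.4 in PC9M and 44.9 and 30.3 in H358. For PTBP1 and TARDBP the 1.5-fold mark was thus passed in PC9M only, and for KHDRBS1, the signal-regulated RNA-binding protein Sam68, in H358 only. KHDRBS1 was at 39.4 and 36.98 FPKM in PC9, 106 and 98.2 in PC9M and 98.9 and 57.6 in H358. MATR3, a nuclear matrix protein whose listed locus also holds SNHG4, had ratios of 0.04, -0.42 and -0.50. The 7 genes had median GNF5 ratios of 0.03, -0.75 and -0.55.

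**Figure D3:**
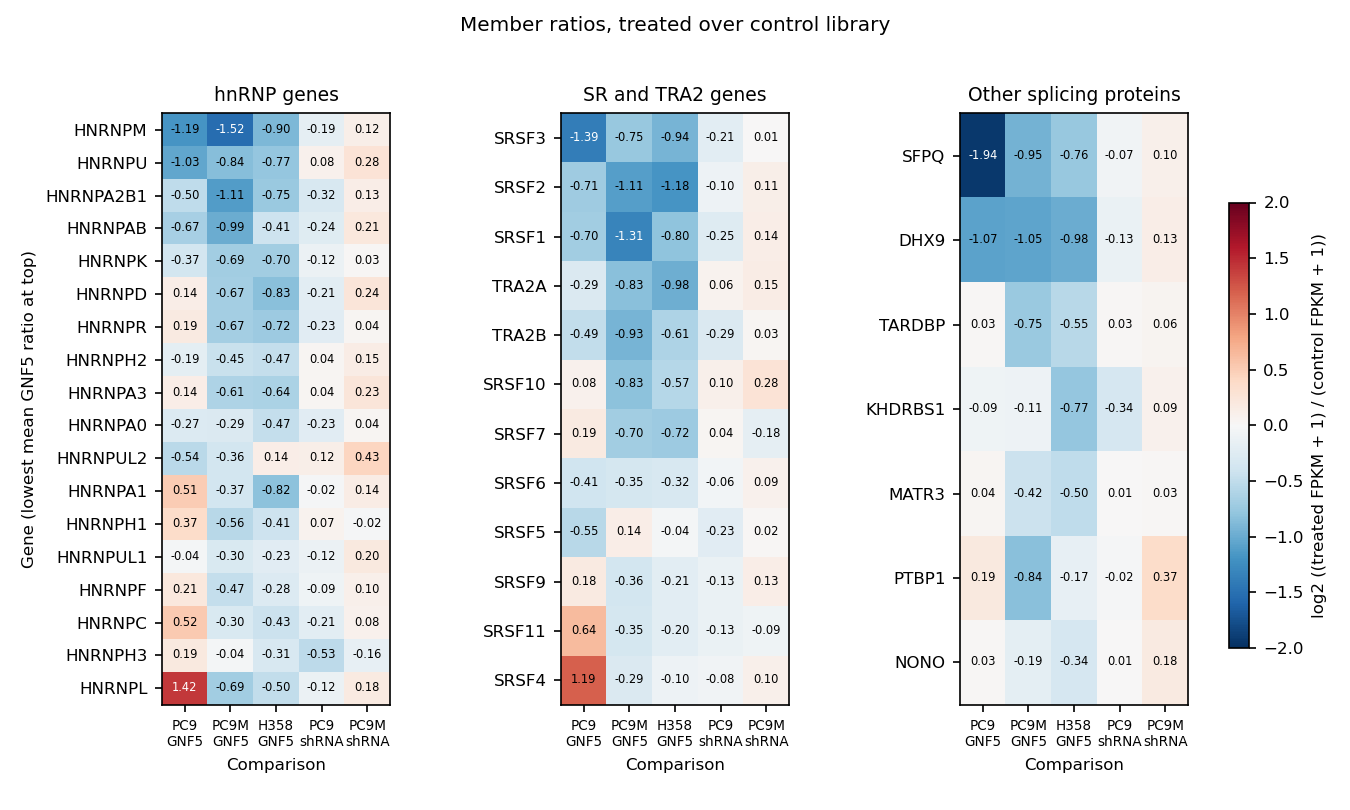
Log2 ratio of FPKM plus 1, treated over control library (colour and printed value), for each of the 37 genes (rows, by role and by mean GNF5 ratio) in each of the 5 pairs (columns). The GNF5 columns of PC9M and H358 are blue for 36 genes each, the PC9 column is mixed, with SFPQ at -1.94 and HNRNPL at 1.42, and the shRNA columns are pale.

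The order of the genes by GNF5 ratio was partly shared between lines that have no library in common. Over the 37 genes Spearman's coefficient was 0.63 between PC9M and H358, 0.51 between PC9 and PC9M and 0.45 between PC9 and H358. Over all genes of at least 1 FPKM in both comparisons it was 0.33, 0.13 and 0.20. That wider set reaches lower levels than the 37 genes do, and no coefficient was taken among genes of a like level. These coefficients are descriptions across genes, which are not independent and share each library's normalisation. The ratios were also known when the 37 genes were listed, so nothing is read from the gap to all genes. The authors' deposited table marked 1 of the 37 as significant with GNF5, HNRNPM in PC9M, with a q-value of 0.0469 from a Cuffdiff test of 1 library against 1. Over all genes with a completed test, the authors' deposited table marked 37 in PC9, 70 in PC9M and 107 in H358, or 0.259%, 0.481% and 0.709%. The lowest q-value among the 37 in the authors' deposited table was 0.0908 in PC9, for SFPQ, and 0.0508 in H358, for DHX9.

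With the ABL1/ABL2 shRNAs none of the 37 was 1.5-fold apart in either line. In PC9 26 were lower, where 62.3% of 11861 genes were, with a median log2 ratio of -0.12 against -0.09 over all genes. The PC9 ratios ran from -0.53 (HNRNPH3, 24.97 and 16.98 FPKM) to 0.12 (HNRNPUL2, 20.1 and 21.9), and over all genes 6.43% were at least 1.5-fold lower and 4.07% higher. In PC9M 33 were higher and 4 lower, where 51.9% of 12126 genes were lower, and the median was 0.11 against -0.01. The PC9M ratios ran from -0.18 (SRSF7, 73.4 and 64.9 FPKM) to 0.43 (HNRNPUL2, 21.8 and 29.7), and over all genes 2.23% were at least 1.5-fold lower and 2.27% higher. HNRNPH3 and SRSF11 were lower in both lines, 9 genes were higher in both, and 24 were lower in PC9 and higher in PC9M. Shares of all genes for these patterns are not given here, so nothing is read from the counts. The authors' deposited table marked none of the 37 in either shRNA pair, against 101 genes in PC9 and 133 in PC9M. Those are 0.739% and 0.936% of genes with a completed test, so nothing is read from the absence of marks among 37. None of the 37 had an unadjusted p-value under 0.05 in the authors' deposited table for the shRNAs, against 6.04% of genes with a completed test in PC9 and 5.05% in PC9M. With GNF5 the authors' deposited table gave such a p-value to 12 of the 37 in PC9M, 16 in H358 and 5 in PC9, against 6.21%, 7.07% and 7.02% of genes with a completed test. HNRNPF had no completed test in the authors' deposited table for the PC9M shRNA pair. The sign of the small PC9 median depended on scaling, since it was 0.01 once the median of genes of at least 10 FPKM was subtracted.

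The control cultures of PC9 differed from those of the other lines, and from each other, in the level of these genes. Within the DMSO library the median gene of the 37 stood at the 79.1 percentile of genes of at least 1 FPKM in PC9, at 94.2 in PC9M and at 91.6 in H358. In the scrambled libraries it stood at 86.9 in PC9 and 93.9 in PC9M. With GNF5 these ranks came to 72.1 in PC9, 91.4 in PC9M and 89.1 in H358, and with the shRNAs 86.2 in PC9 and 94.1 in PC9M. The lowest of the 37 in the PC9 DMSO library were SRSF7 (4.15 FPKM), TRA2B (8.05) and TARDBP (11.6), and the highest were NONO (212), HNRNPK (133) and HNRNPA2B1 (125).

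**Figure D4:**
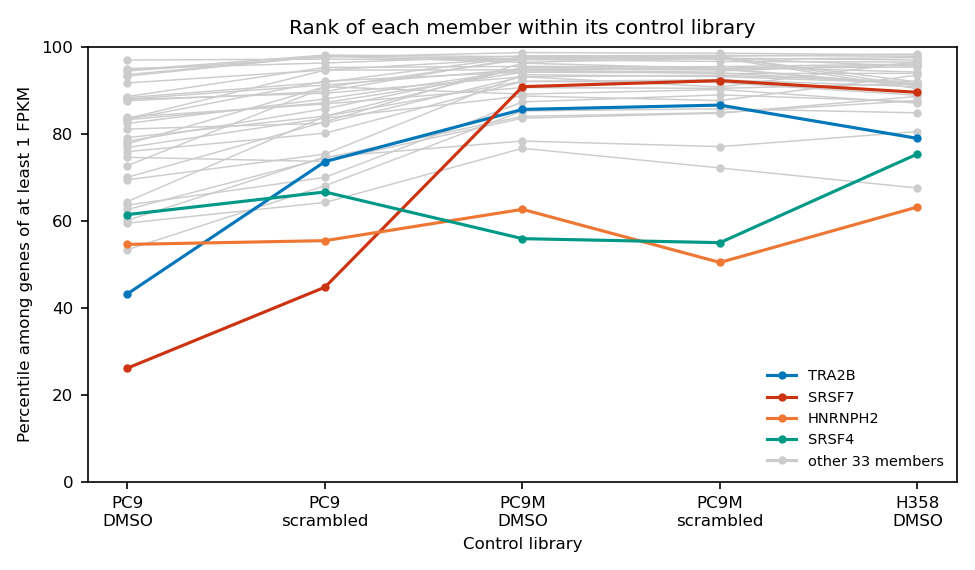
Percentile of each of the 37 genes (y axis) among genes of at least 1 FPKM within each of the 5 control libraries (x axis), 1 line per gene, with 4 low genes in colour. SRSF7 goes from 26.1 in PC9 with DMSO and 44.8 in PC9 with scrambled shRNA to 90.9 in PC9M with DMSO, and most grey lines lie lower in PC9 with DMSO than in the other libraries.

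Set across the separately normalised tables, 30 of the 37 were at least 1.5-fold higher in PC9M than in PC9 with DMSO, where 36.3% of 12854 genes were, and 14 with scrambled shRNA, where 27.3% of 12578 were. The median log2 ratios were 1.22 and 0.46, against 0.14 and -0.04 over all genes. The same 14 were higher in both settings, against 23.8% of genes, and none was lower in both, against 21.9%. SRSF7 had the largest difference, at 64.8 against 4.15 FPKM with DMSO and 73.4 against 9.92 with scrambled shRNA, PC9M first. SRSF2 was at 186 against 24.3 and at 195 against 84.4, HNRNPA3 at 149 against 21.7 and at 112 against 46.1, and HNRNPF at 213 against 56.5 and at 221 against 77.4. With DMSO the median ratio of H358 over PC9 was 1.27, against 0.43 over all genes, and that of H358 over PC9M was -0.05, against 0.25.

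All 37 were higher in the PC9 scrambled library than in the PC9 DMSO library, 2 controls from separate tables, with a median of 0.72 against 0.17 over all genes, of which 39.7% were lower. At least 1.5-fold higher were 23, where 24.3% of 12161 genes were, with SRSF2 at 84.4 against 24.3 FPKM and HNRNPM at 137 against 42.0. In PC9M the scrambled and DMSO libraries differed by a median of 0.01, from -0.54 (HNRNPH2) to 0.34 (HNRNPAB), with none past 1.5-fold, where 3.6% of 12265 genes were higher and 4.97% lower. In PC9 the control cultures thus differed by a median of 0.72, while the GNF5 comparison, which shares the DMSO library, had a median of -0.04. That GNF5 median covers ratios from -1.94 to 1.42, with 19 genes lower and 18 higher. It therefore does not measure the size of the GNF5 differences.

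The other genes of the pathway were taken from 4 lists. Of 42 other RNA-binding regulators, 40 passed 1 FPKM in PC9M and H358 and 39 in PC9, and their median GNF5 ratios came to 0.05 in PC9, -0.30 in PC9M and -0.34 in H358. At least 1.5-fold lower were 4, 8 and 10 of them, or 10.3%, 20% and 25%, where 20%, 8.04% and 10.9% of all genes were. Higher by as much were 7, 1 and 0 of them, where 13%, 5.65% and 2.76% of all genes were. TAF15, a nuclear RNA-binding protein, had ratios of -0.98, -0.36 and -0.60 in PC9, PC9M and H358, and SYNCRIP, an hnRNP-like mRNA-binding protein, had 0.23, -0.81 and -0.62. MBNL2, a muscleblind factor of developmental splicing, was higher in PC9 (38.2 and 64.6 FPKM) and PC9M (35.4 and 61.3) and nearly level in H358 (22.9 and 21.7).

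Of the 68 core spliceosome genes, 28 were lower with GNF5 in PC9, 64 in PC9M and 58 in H358, where 57%, 57.7% and 74.5% of all genes were. Their medians were 0.16, -0.38 and -0.20, and 9, 18 and 2 were at least 1.5-fold lower. Those are 13.2%, 26.5% and 2.94% of the list, against the same 20%, 8.04% and 10.9% of all genes. Higher by as much were 13, 0 and 0 of the 68, where 13%, 5.65% and 2.76% of all genes were. SNRNP25, of the minor spliceosome, had ratios of -0.27, -1.12 and -0.69, and PRPF31, of the tri-snRNP, had -0.76, -0.65 and -0.37. The 25 exon junction and mRNA export genes had medians of 0.01, -0.31 and -0.19, with DDX39B, an export helicase, at -0.26, -0.78 and -0.62. Of 9 SR protein kinases, which phosphorylate the arginine/serine-rich domains, 8 passed 1 FPKM, and none was 1.5-fold lower with GNF5. Over all genes 20%, 8.04% and 10.9% were in PC9, PC9M and H358, so with 8 kinases nothing is read from that. In PC9 3 of the kinases were at least 1.5-fold higher, where 13% of all genes were. CLK1, chosen after its values were seen, was at 19.4 FPKM with DMSO and 60.2 with GNF5 there. The medians of the 8 kinases were 0.50, -0.07 and -0.18 in PC9, PC9M and H358. With the shRNAs the medians of the 4 lists lay between -0.19 and -0.15 in PC9 and between -0.14 and 0.10 in PC9M.

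**Figure D5:**
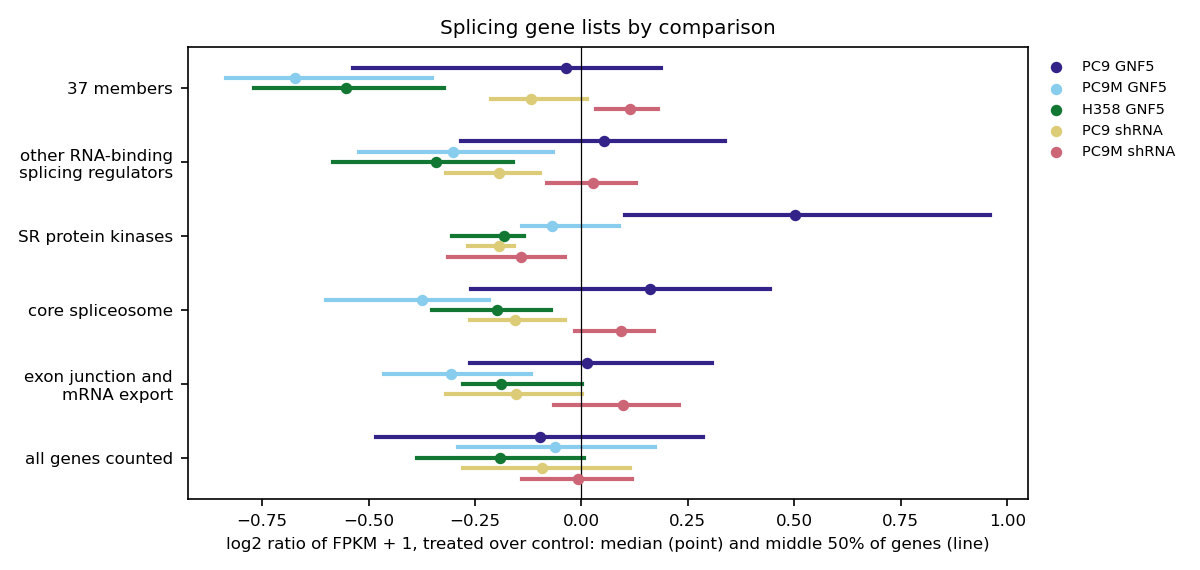
Median (point) and middle 50% (line) of the log2 ratio of FPKM plus 1, treated over control (x axis), for the 37 genes, 4 other splicing gene lists and all genes of at least 1 FPKM in either library (y axis), in each of the 5 pairs (colour). The 37 genes have the lowest medians with GNF5 in PC9M (-0.67) and H358 (-0.55) of the rows shown, and the SR protein kinases the highest in PC9 (0.50).

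The 6 genes MCM2 to MCM7, of the replicative helicase, chosen after their values were seen and not standing for replication genes at large, had median GNF5 ratios of 0.31 in PC9, -1.25 in PC9M and -1.30 in H358, while the shRNA medians were -0.03 in PC9 and 0.08 in PC9M. With GNF5 2, 6 and 6 of the 6 were lower, where 57%, 57.7% and 74.5% of all genes were, and their part in the difference of the splicing genes was not tested. A rough ratio of sequencing depth, treated to control, was taken from the most common FPKM ratio among very low genes, in coarse bins over a limited range. It was 1.03 in PC9, 1.03 in PC9M and 1.21 in H358 with GNF5, and its part was not tested either. Of the 37 listed loci, 11 overlap another gene, and SRSF10 was listed on an unplaced piece of chromosome 1, so these levels may hold reads of neighbours or copies.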

How the data were processed

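RNA of 10 cultures, 1 library per group, was sequenced by the authors. The submitters' processing notes name TopHat, Cuffdiff and the hg18 build, and tool versions and annotation are not given in the sources used here. The deposited tables hold the authors' FPKM of both libraries of a pair, normalised within that table, and Cuffdiff's p-value and q-value, which the authors deposited for 1 library against 1. The H358 table names its samples q1 and q3, and whether its run held another condition is not stated in it. Tables were joined by symbol. Dropping 28 date-like symbols per table and EEF1A1, not estimated in 1 table, left 23240 or 23241 symbols per table, of which 6 or 7 were not in every table, and the 23234 in all 5 were used.

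Ratios were log2 of treated FPKM plus 1 over control FPKM plus 1, for genes of at least 1 FPKM in either library, and genes at least 1.5-fold apart were counted. No test was run. Depth is unknown and FPKM allow no counting interval. Because the tables count positions from 0, locus starts were raised by 1. Named genes were the members at least 1.5-fold apart (up to the 6 lowest and 4 highest per comparison, and those lower in all 3 GNF5 lines), the extreme levels in PC9, up to 4 differing between PC9M and PC9, and up to 3 per other list each way. Values of further members were added to account for all 37, and CLK1 was chosen after its values were seen. LSM8 was not matched. A gene that the rule names in the list of other RNA-binding regulators is not reported here. The members, lists and rules were chosen with earlier results of these data known. The arithmetic of ratios and counts was checked on simulated data without noise, which tells nothing about the spread between libraries. Alternatives were other pseudocounts, centring, other minimum levels, a larger fold and leaving out a line. Promoter sequences came from RefSeq. Python 3.11.15, numpy 2.4.6, pandas 2.3.3 and matplotlib 3.10.9 were used.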

Additional observations from a re-analysis of the deposited data

Results flagged for a closer look

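HNRNPL lay on opposite sides with GNF5 in PC9 and in PC9M, past 1.5-fold in each. Its log2 ratio of FPKM plus 1 was 1.42 in PC9, from 100.4 FPKM with DMSO to 270.0 with GNF5, and -0.69 in PC9M, from 193 to 119. Each group is 1 library, and the labelled GNF5 dose was 10 mM in PC9 and 20 mM in PC9M. Between PC9 and PC9M line and dose thus cannot be told apart. In H358, labelled 10 mM as PC9 was, HNRNPL was at 132 FPKM with DMSO and 93.5 with GNF5. That log2 ratio was -0.50, short of 1.5-fold, and the difference between lines was not tested. The PC9 DMSO value was the lowest PC9 value of the gene, which was at 321 FPKM with scrambled and 295 with ABL1/ABL2 shRNAs. The pattern was counted over the 10655 genes of at least 1 FPKM in all 3 GNF5 comparisons. Of these, 1.86% were at least 1.5-fold higher in PC9 and lower by as much in PC9M or H358. HNRNPL was the 1 gene of the 37 that was, and nothing is read from that count of 1.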

How the results depend on the processing

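No paired analysis was possible because each group has 1 library and the labels give no replicate numbers, and for the same reason no replicate could be left out. Pseudocounts of 0.1 and 5 and minimum levels of 10 FPKM or none kept each median within 0.1 and each count within 1.5 times. Subtracting the median of all genes put the GNF5 median in H358 at -0.36 and its count at least 1.5-fold lower at 8, and the medians between controls at 1.08 (PC9M over PC9, DMSO), 0.85 (H358 over PC9), -0.30 (H358 over PC9M) and 0.56 (PC9 scrambled over DMSO). Subtracting the median of genes of at least 10 FPKM put the GNF5 medians at -0.54 in PC9M and -0.36 in H358, the H358 count at 8, the shRNA median in PC9 at 0.0076, and the control medians at 0.69 (PC9M over PC9, scrambled), 0.96 (H358 over PC9), -0.29 (H358 over PC9M) and 0.51 (PC9 scrambled over DMSO). With either centring 5 genes, not 7, were 1.5-fold lower in all 3 lines. Shares of all genes under either centring are not given here, so the centred counts have none to be set against. At a fold of 2 the counts of lower genes were 5 (PC9), 5 (PC9M), 1 (H358) and 0 (all 3 lines together). Without PC9 15 genes were lower in both other lines. Alternatives for control libraries and single genes were added after the data were seen. Of 48 single-gene ratios past 1.5-fold, 11 and 15 came short of it with the 2 centrings and 3 with a pseudocount of 5, and none reversed. With 1 library per group and no counts, the spread between cultures is unknown.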
